A study of Homo sapiens with 12 samples.

Results

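The integrated stress response was followed through 10 named genes in HepG2 cells, an established human liver tumour line, after exposure to toosendanin, a triterpenoid from Melia toosendan. The genes were the regulator ATF4, the transcription factors ATF3 and DDIT3, the chromatin-associated stress protein NUPR1, and the feedback genes TRIB3 and PPP1R15A. The others were CHAC1, which degrades glutathione, the amino acid enzyme ASNS, and SESN2 and DDIT4, which restrain growth signalling. All 10 genes were chosen by symbol, with earlier results of these data known, and were found among 28265 genes of the expression table. In the table of N6-methyladenosine (m6A), the commonest internal mark of mRNA, 22 of 46178 regions carried the symbol of one of them, and these covered 9 genes. Toosendanin-treated cells and cells labelled control were each sequenced as 3 libraries pulled down with an m6A antibody (IP) and 3 libraries of the RNA before pull-down (input). Dose, exposure time and vehicle are not stated in the labels.

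In the integrated stress response, kinases that sense unfolded protein, missing amino acids, missing haem or viral RNA phosphorylate the translation factor eIF2alpha. Bulk translation then slows, while the ATF4 mRNA, whose leader carries short upstream reading frames, is translated better, so ATF4 activity is set largely at the protein level. ATF4 pairs with other basic leucine zipper (bZIP) proteins at composite CEBP-ATF response elements and switches on genes for amino acid supply, further transcription factors and feedback regulators. In liver cells the same programme is known to drive secreted stress hormones. RNA measurements such as these do not show eIF2alpha phosphorylation or ATF4 protein.

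The files hold no values per library. Expression is given as the authors' own DESeq2 comparison, with 1 fold change and standard error per gene and no statement of which libraries entered it, and m6A as counts pooled per condition. Those sums came to 29094328 for toosendanin IP, 24253006 for toosendanin input, 42316089 for control IP and 34131862 for control input. The 9 liver markers examined, among them ALB and HNF4A, had mean normalized counts between 5546 and 411979 in the authors' deposited table. Of 6 blood, 4 endothelial and 4 fibroblast markers, 2, 1 and 3 were listed at 0 there, and the highest values were 49191 for the blood list, which belonged to LYZ, 13.1 for the endothelial list and 36.1 for the fibroblast list. Some markers moved with toosendanin: the log2 fold change was -0.37 ± 0.06 for LYZ and, among the liver markers, ran from -0.29 ± 0.06 for AFP to 0.58 ± 0.06 for APOA1, with ALB at 0.52 ± 0.08, in the authors' deposited table. Their part in the results was not tested.

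The ATF4 transcript did not pass the test, while most members downstream of it did, in both directions. By the authors' deposited DESeq2 table, 7 of the 9 members with an adjusted p passed the threshold of 0.05, 5 higher and 2 lower after toosendanin. Among all 16552 genes with an adjusted p there, 31.4% passed, 15.7% higher and 15.7% lower. These shares were not matched on mean normalized count, which was at least 466 in the 9 members and reached down to 1.80 over all genes. The median log2 fold change of the 9 members was 0.58 in the authors' deposited table, against -0.00023 for all genes tested. Since the members were chosen with earlier results known, these figures describe the set and do not test it. ATF3, DDIT3, NUPR1, PPP1R15A and TRIB3 were on the rising side, and ASNS and DDIT4 on the falling side. In whole cultures, fewer cells with a transcript and less of it per cell cannot be told apart.

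ATF4 itself, the bZIP activator at the centre of the response, held 633 CPM in the toosendanin input and 617 CPM in the control input (15342 and 21057 counts). CPM stands for a gene's input counts, summed over its own m6A regions, per 1000000 input counts. For expression changes, ± is the deposited standard error throughout. For m6A regions and input ratios, ± is a counting error computed here from summed counts. The authors' deposited table listed the ATF4 log2 fold change at -0.01 ± 0.07, with a DESeq2 adjusted p of 0.963. The 95% interval of that change ran from -0.14 to 0.12. Its mean normalized count in the authors' deposited table was 21335, and those of the other members with a value lay between 466 and 5189.

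NUPR1 and the downstream transcription factors ATF3 and DDIT3 rose. NUPR1, a small chromatin-associated stress protein, had 46.8 CPM in the toosendanin input, against 5.42 CPM in the control input (1134 and 185 counts). Its log2 fold change was 2.93 ± 0.22 in the authors' deposited table, or 7.63-fold (DESeq2 adjusted p = 2.97e-37), above the change of 97.4% of the genes tested. ATF3, a bZIP factor that can repress or activate and is induced by many stresses, held 79.2 CPM in the toosendanin input and 29.2 CPM in the control input (1922 and 996 counts). The authors' deposited table gave it a change of 1.41 ± 0.15, or 2.66-fold (DESeq2 adjusted p = 3.98e-19).

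DDIT3 encodes CHOP, the bZIP factor tied to cell death when stress in the endoplasmic reticulum persists. It stood at 65.6 CPM in the toosendanin input, against 29.7 CPM in the control input (1590 and 1015 counts). The authors' deposited table listed its change at 1.20 ± 0.14, or 2.30-fold (DESeq2 adjusted p = 3.06e-17). The changes of ATF3 and DDIT3 differed by 0.21 ± 0.20 with the errors of both genes taken as independent, which is within 2 standard errors. NUPR1 lay above ATF3 by 1.52 ± 0.27.

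Both feedback genes, PPP1R15A and TRIB3, rose. PPP1R15A encodes GADD34, which brings protein phosphatase 1 to eIF2alpha and so reverses the translation block. It held 236 CPM in the toosendanin input and 125 CPM in the control input (5729 and 4271 counts). Its change was 0.87 ± 0.12 in the authors' deposited table, or 1.83-fold (DESeq2 adjusted p = 8.57e-13). TRIB3, a pseudokinase that binds ATF4 and DDIT3 and dampens their activity, held 106 CPM in the toosendanin input and 69.9 CPM in the control input (2563 and 2387 counts). The authors' deposited table gave TRIB3 a change of 0.58 ± 0.08, or 1.49-fold (DESeq2 adjusted p = 5.64e-13). PPP1R15A was within 2 standard errors of DDIT3 above it (a difference of 0.33 ± 0.18), while TRIB3 lay 0.30 ± 0.14 below PPP1R15A.

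CHAC1, which degrades glutathione and is often used as a reporter of ATF4 activity, was listed at a mean normalized count of 0 in the authors' deposited table and had no m6A region. No change can be given for it. A listed 0 is not shown here to mean absence of the transcript: of 9159 genes listed at 0 in that authors' deposited table, 79 had regions of their own in the m6A table. One of them, HYI, picked after its values were seen, had 215 input counts in toosendanin cells and 345 in control cells.

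Among the members of amino acid supply and growth control, ASNS and DDIT4 fell and SESN2 did not pass the test. ASNS, which makes asparagine and is a classical ATF4 target, fell by 0.31 ± 0.09 on the log2 scale in the authors' deposited table, or 1.24-fold (DESeq2 adjusted p = 0.00442). The only region with the ASNS symbol alone held 45 input counts in toosendanin cells and 93 in control cells, and the 2 regions it shares with the readthrough gene CZ1P-ASNS held 17 and 74 in toosendanin cells, against 43 and 122 in control cells. The centred log2 ratio of these 45 and 93 counts was -0.56 ± 0.26, with a 95% counting interval of -1.08 to -0.05, which includes the authors' deposited change. The sources used here do not say how the counting divided reads between ASNS and CZ1P-ASNS, so the size of its change is uncertain.

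DDIT4 encodes REDD1, an inhibitor of the growth kinase mTORC1 that stress and glucocorticoids induce. It held 22.4 CPM in the toosendanin input, against 37.8 CPM in the control input (544 and 1289 counts). Its change was -0.78 ± 0.12 in the authors' deposited table, or 1.72-fold lower (DESeq2 adjusted p = 2.5e-09), and 10.5% of the genes tested lay below it. SESN2, a sestrin that also restrains mTORC1 and senses leucine, held 40.0 CPM in the toosendanin input and 36.0 CPM in the control input (971 and 1229 counts). The authors' deposited table gave SESN2 a change of 0.13 ± 0.09 that did not pass (DESeq2 adjusted p = 0.314), with a 95% interval of -0.05 to 0.32. DDIT4 lay 0.47 ± 0.15 below ASNS, its neighbour in the order of changes, and ASNS 0.30 ± 0.11 below ATF4. SESN2 and ATF4 were within 2 standard errors of each other, with a difference of 0.14 ± 0.11. The plot of expression changes shows this order. The ratio of summed inputs of the m6A table lay inside the deposited interval for 8 of the 9 measured members, all but ASNS. Those inputs may be the libraries behind the deposited changes, so this is not an independent check.

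**Figure D1:**
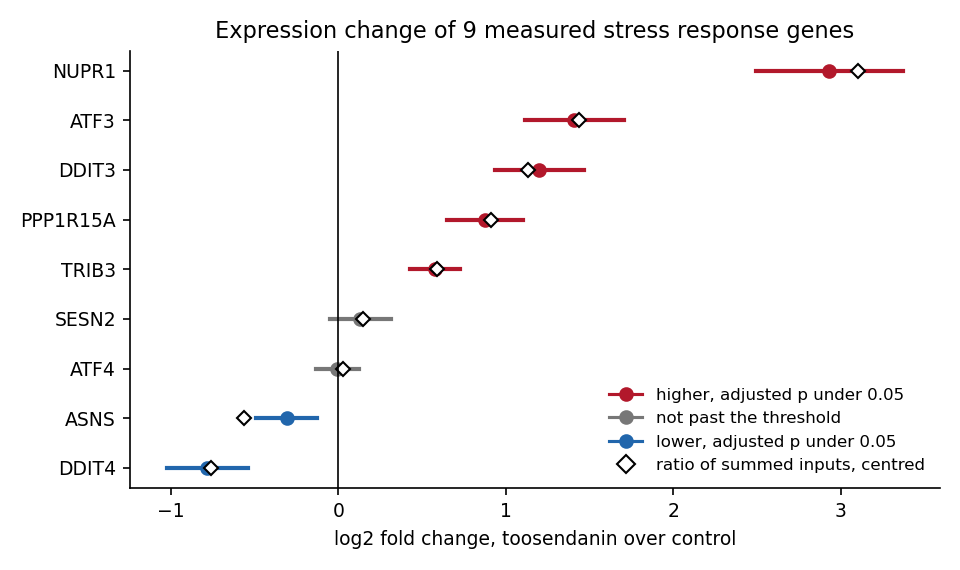
Expression change of the 9 measured members on the log2 scale (toosendanin over control); filled points and bars are the authors' deposited log2 fold change and its 95% interval, coloured by call, and open diamonds are the centred log2 ratio of summed input counts. NUPR1 stands at 2.93, ATF4 and SESN2 span 0, and ASNS and DDIT4 lie to the left of it.

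The promoters of several members are shown because ATF4 and its partners are known to act through short elements near the start of these genes. RefSeq windows (GRCh38.p14), from 250 bases before to 50 after an annotated start, were available for 9 members as 15 windows, and NUPR1 was not among them. They were searched on both strands for the CEBP-ATF response element, TTNCATCA, and for the cyclic AMP response element, TGACGTCA, which shares no full match with the other. Over all 27305 genes with a window, 4.46% held the first in at least one window and 2.25% the second (3.62% and 1.85% of 35116 windows). The first was found in a window of 3 of the 9 members (ASNS, ATF3 and CHAC1) and the second in that of PPP1R15A. Matches are in capitals.

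ASNS, chr7:97872359-97872658, minus strand: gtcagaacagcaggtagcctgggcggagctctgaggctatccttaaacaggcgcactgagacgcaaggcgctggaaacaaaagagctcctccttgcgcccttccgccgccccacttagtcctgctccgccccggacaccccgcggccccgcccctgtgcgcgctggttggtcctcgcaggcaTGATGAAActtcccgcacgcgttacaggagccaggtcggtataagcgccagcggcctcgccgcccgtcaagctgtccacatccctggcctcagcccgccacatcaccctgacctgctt
ATF3, chr1:212565157-212565456, plus strand: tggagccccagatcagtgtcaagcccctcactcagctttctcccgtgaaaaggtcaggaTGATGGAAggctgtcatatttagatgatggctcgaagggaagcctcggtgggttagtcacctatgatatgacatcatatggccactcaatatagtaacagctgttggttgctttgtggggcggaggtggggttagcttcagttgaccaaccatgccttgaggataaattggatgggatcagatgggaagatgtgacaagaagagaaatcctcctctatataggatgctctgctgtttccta
CHAC1, chr15:40953221-40953520, plus strand: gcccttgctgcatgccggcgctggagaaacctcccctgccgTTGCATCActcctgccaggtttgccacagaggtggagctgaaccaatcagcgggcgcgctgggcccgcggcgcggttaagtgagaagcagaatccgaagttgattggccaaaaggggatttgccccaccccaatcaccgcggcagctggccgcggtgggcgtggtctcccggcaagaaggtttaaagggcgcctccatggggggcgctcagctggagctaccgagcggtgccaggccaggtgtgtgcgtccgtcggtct
PPP1R15A, chr19:48872171-48872470, plus strand: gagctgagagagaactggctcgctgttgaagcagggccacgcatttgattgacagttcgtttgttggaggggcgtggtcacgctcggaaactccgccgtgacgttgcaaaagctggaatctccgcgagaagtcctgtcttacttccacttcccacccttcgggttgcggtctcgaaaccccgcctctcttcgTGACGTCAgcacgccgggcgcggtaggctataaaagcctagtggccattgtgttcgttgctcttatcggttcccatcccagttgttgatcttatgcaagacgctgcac

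In the ASNS window TGATGAAA, the element read on the opposite strand, began 68 bases before the start, and in ATF3 TGATGGAA began 191 bases before the start of the upstream of its 2 windows. In CHAC1 TTGCATCA began 209 bases before the start, and in PPP1R15A TGACGTCA began 58 bases before it. Members with a CEBP-ATF match thus included one that rose (ATF3), one that fell (ASNS) and one listed at 0 (CHAC1). The windows of ATF4, DDIT3, TRIB3, SESN2 and DDIT4 held neither set of letters. A match is a description of the sequence, and elements outside these windows were not searched.

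Of the 9 members with regions, 7 had a region enriched by the m6A antibody in both conditions. By the authors' deposited FDR, 3 of 18 member regions were called lower after toosendanin, among them a depleted region of ATF4. Over all 24688 regions with an FDR, 6.24% were called lower. That FDR holds counting error only, and 1 of the 3 still passed when scaled to column totals. Enrichment is the IP over input ratio of a region after scaling each to its total count, and its intervals cover counting error only. Of the 22 regions, 9 were enriched in both conditions with 95% intervals above a ratio of 1, by 1.21- to 1.83-fold, and these belonged to 7 members. A further 6 regions were depleted in both conditions. By the same intervals, 18.7% of the 45808 regions with counts in every column were enriched in both conditions and 25.6% depleted in both. Of the 12383 genes with such a region, 44.7% had one enriched in both. Among the 9788 genes with at least 2 regions the share was 50.7%, and the 7 members had 2 to 4 regions each. The intervals narrow with counts, so these shares depend on depth as well, and the members were not matched to other genes on it. ASNS and DDIT4 had no region enriched in both conditions. Regions are numbered in the order in which the authors' table lists them, since it gives no positions.

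ATF4 combined both kinds. Its region 3 held 21253 IP and 11702 input counts in toosendanin cells, against 32567 and 16681 in control cells, a ratio of 1.51 in toosendanin cells and 1.57 in control cells. Region 2 held 1227 IP and 2706 input counts in toosendanin cells and 1678 and 3030 in control cells, a ratio of 0.378 in toosendanin cells and 0.447 in control cells. Region 1 had ratios of 0.324 in toosendanin cells and 0.310 in control cells. Of the 3 ATF4 regions, region 3 was thus the enriched one, and the other two were depleted in both conditions.

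By the FDR of the authors' deposited table, 3 of the 18 member regions with an FDR changed, all of them lower after toosendanin. Among all 24688 regions with an FDR there, 8.95% changed, 2.71% higher and 6.24% lower. The median log2 fold change of the 18 regions was -0.13, against -0.05 over all regions tested in the authors' deposited table. ATF4 region 2 stood at -0.35 ± 0.07 (FDR 7.37e-06) and ATF4 region 3 at -0.15 ± 0.02 (FDR 1.93e-09) in the authors' deposited table, with counting errors. ATF4 region 2 lay below region 3 by 0.21 ± 0.07, an error that leaves out the spread between libraries. Region 1 at -0.08 ± 0.12 did not pass (authors' deposited FDR 0.753). The ATF4 transcript itself did not pass the expression test, as given above.

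The third called region belonged to NUPR1. Its region 1 held 527 IP and 353 input counts in toosendanin cells and 161 and 71 in control cells, a ratio of 1.24 in toosendanin cells and 1.83 in control cells. The authors' deposited table listed its change at -0.69 (FDR 0.0319), and the counting error computed here was 0.23. NUPR1 region 2 held 1136 IP and 781 input counts in toosendanin cells and 201 and 114 in control cells, and at -0.36 ± 0.18 it did not pass (authors' deposited FDR 0.228). Both regions remained enriched in both conditions, and their changes differed by 0.34 ± 0.29.

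**Figure D2:**
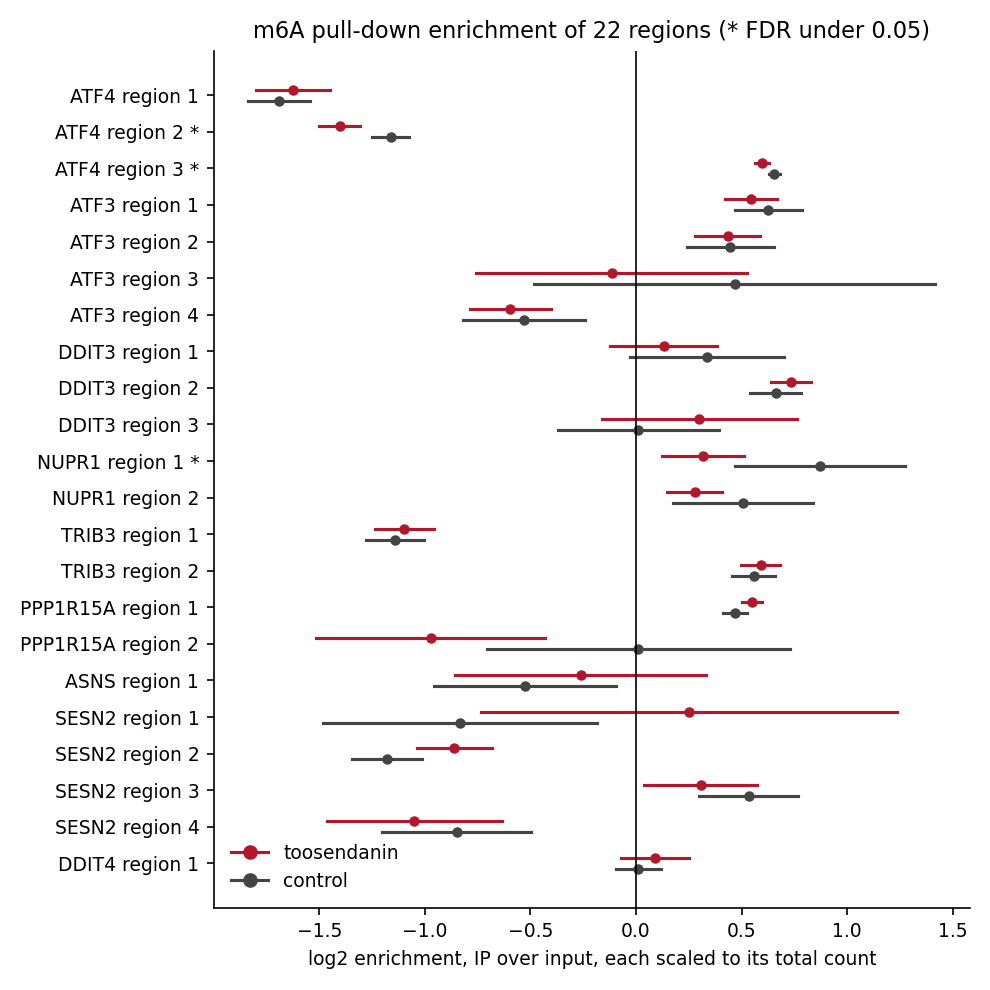
m6A pull-down enrichment of the 22 member regions, as log2 of IP over input scaled to total counts; for each region toosendanin (red) is drawn above control (dark grey), bars are 95% counting intervals, and asterisks mark an FDR under 0.05 in the authors' deposited table. ATF4 region 3 is enriched in both conditions and ATF4 regions 1 and 2 lie far to the left.

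The balance of higher and lower calls depended on how IP and input were scaled. Of the regions called in the authors' deposited table, 30.3% were higher, whereas 55.4% were higher after centring on the median region and 76.2% after scaling to the column totals. ATF4 region 2 passed in each of those (FDR 0.000234 centred, 0.00606 scaled to totals). This region was depleted in both conditions, at ratios of 0.378 in toosendanin cells and 0.447 in control cells. Its change therefore lies outside the enriched region of ATF4, and whether it reflects m6A was not tested. ATF4 region 3 passed when centred but not when scaled to totals, where its change was -0.06 (FDR 0.0737), and NUPR1 region 1 passed in neither (FDR 0.0567 and 0.108). All 3 stayed below 0. Of the other member regions with an FDR, 6 had a change below 0 in the authors' deposited table and above 0 when scaled to totals, and none of these passed in either. One was PPP1R15A region 1, at -0.05 as deposited by the authors and 0.08 when scaled to totals, and the ratios given for these regions carry the scaling to totals. The p-values of the authors' deposited table hold counting error only: in 99.96% of the 23048 regions with a p under 0.9, they gave back the Poisson error of the 4 summed counts within 1%.

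The members with the clearest rise in expression showed no passing change of m6A apart from NUPR1. DDIT3 region 2, its main enriched stretch, held 2616 IP and 1310 input counts in toosendanin cells and 1600 and 816 in control cells, a ratio of 1.66 in toosendanin cells and 1.58 in control cells, and the authors' deposited change was -0.02 ± 0.08. PPP1R15A region 1 held 9945 IP and 5657 input counts in toosendanin cells and 7282 and 4243 in control cells, and its authors' deposited change of -0.05 ± 0.04 had a 95% interval of -0.12 to 0.03. For TRIB3 region 2 the ratio was 1.51 in toosendanin cells and 1.47 in control cells, with an authors' deposited change of -0.09 ± 0.07. TRIB3 region 1 was depleted, at 0.467 in toosendanin cells and 0.453 in control cells. The weaker DDIT3 regions 1 and 3 had authors' deposited changes of -0.27 and 0.23, with counting errors of 0.23 and 0.30 computed here. Neither was called, and region 3 had no FDR.

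ATF3 had 4 regions, and their authors' deposited changes ran from -0.65 to -0.12 with none past the threshold. Regions 1 and 2 were enriched, at ratios of 1.46 and 1.35 in toosendanin cells and 1.54 and 1.36 in control cells. Region 3 held 14 to 41 counts per column and received no FDR. SESN2 also had 4 regions, with authors' deposited changes from -0.35 to 0.95 and none past the threshold. Its region 3 was the enriched one, at 1.24 in toosendanin cells and 1.45 in control cells. PPP1R15A region 2 had the lowest authors' deposited change of all member regions, -1.12, on 28 to 72 counts per column. Its counting error computed here was 0.46, and it did not pass (authors' deposited FDR 0.107). The single regions of ASNS and DDIT4 had authors' deposited changes of 0.12 and -0.06, with counting errors of 0.38 and 0.10 computed here. Neither passed.

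**Figure D3:**
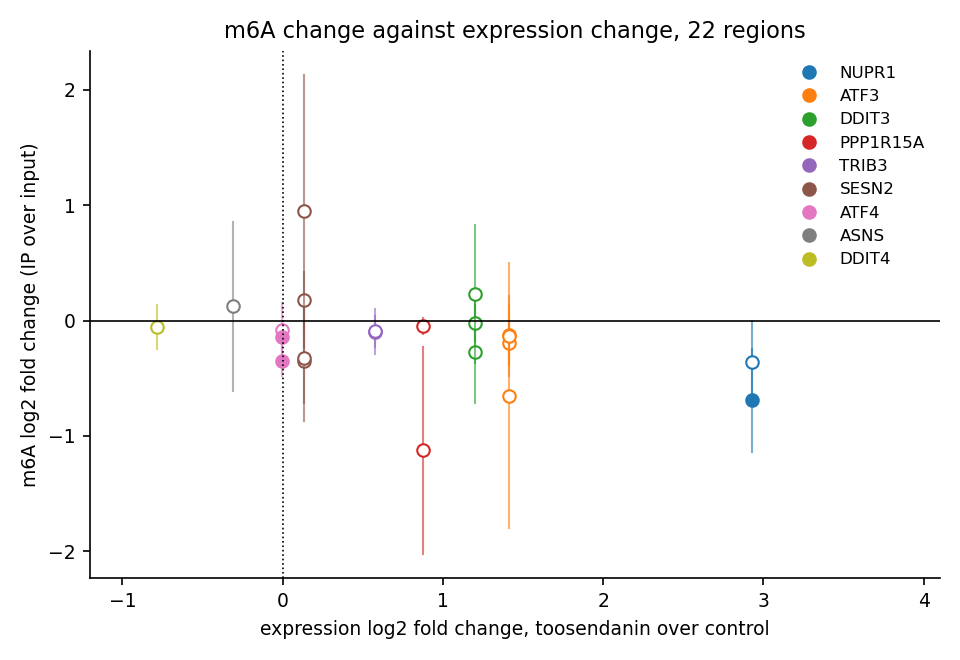
m6A change of each member region (vertical, log2 change of IP over input with 95% counting intervals) against the expression change of its gene (horizontal, log2), both toosendanin over control and from the authors' deposited tables; filled points passed an FDR of 0.05. The filled points are 2 regions of ATF4 at no change of expression and 1 region of NUPR1 at 2.93.

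The rest of the pathway was examined through 9 further lists with 99 genes, of which 98 had an adjusted p. For comparison, 15.7% of all genes with an adjusted p were called higher and 15.7% lower. Upstream, the authors' deposited table called 3 of 7 eIF2alpha kinases and activators higher and 1 lower, with a median of 0.09. EIF2AK3, the kinase PERK of the endoplasmic reticulum, stood at 0.36 ± 0.08, EIF2AK1, the haem-regulated kinase, at 0.28 ± 0.07 and EIF2AK2, the kinase of double-stranded RNA, at 0.29 ± 0.11 in the authors' deposited table. EIF2AK2 passed at a DESeq2 adjusted p of 0.0222 and not at 0.01. EIF2AK4, which encodes GCN2, the sensor of uncharged tRNA, fell by 0.38 ± 0.05 there (DESeq2 adjusted p = 4.05e-11). The authors' deposited table called 2 higher and 4 lower among 12 genes of eIF2, its exchange factor eIF2B and the phosphatase. These are 16.7% higher, near the share of all genes, and 33.3% lower, with a median of -0.04. The eIF2 gamma subunit EIF2S3 stood at 0.36 ± 0.07 and the beta subunit EIF2S2 at -0.24 ± 0.05, while the eIF2B subunits were at -0.25 ± 0.06 for EIF2B4 and -0.35 ± 0.10 for EIF2B3 in the authors' deposited table.

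DESeq2 in the authors' deposited table called 3 of 10 bZIP factors of the same network higher, against 15.7% of all genes. It called 0 lower, also at an unadjusted p under 0.05, and the list median was 0.22. CEBPG, a dimer partner of ATF4, stood at 0.63 ± 0.08 and NFE2L1, a regulator of proteasome genes, at 0.30 ± 0.06 in the authors' deposited table. ATF5, which like ATF4 is under translational control, was listed at 0.58 ± 0.18 there (DESeq2 adjusted p = 0.00463), but its summed inputs of 671 in toosendanin cells and 1167 in control cells gave a centred log2 ratio of -0.31, the opposite direction. Its rise is therefore uncertain. Without ATF5, 2 of 9 factors were higher, with a median of 0.16 in the authors' deposited table, and the median of the centred input ratios over the 9 factors that have one was 0.04. CEBPB stood at 1.31 ± 0.70 and did not pass (authors' deposited DESeq2 adjusted p = 0.151).

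Of the ATF4 targets for amino acid supply, 5 of 13 synthesis genes and 1 of 10 transporters were called lower. Over all genes tested, 15.7% were called lower and 15.7% higher. The 10% of transporters called lower did not exceed that share. Among 13 genes of amino acid and one-carbon synthesis, DESeq2 in the authors' deposited table called 0 higher (0 also at an unadjusted p under 0.05) and 5 lower, with a median of -0.11. Among them the proline synthesis genes ALDH18A1 and PYCR1 were at -0.53 ± 0.06 and -0.41 ± 0.06, the serine synthesis enzyme PSAT1 at -0.47 ± 0.09 and the mitochondrial folate enzyme MTHFD2 at -0.47 ± 0.09 in the authors' deposited table. Of 10 amino acid transporters it called 0 higher (0 also unadjusted) and 1 lower, the cystine importer SLC7A11, at -0.99 ± 0.11 in the authors' deposited table (DESeq2 adjusted p = 1.23e-18). SLC1A4 at -0.21 ± 0.10, SLC7A1 at -0.16 ± 0.09 and SLC3A2, the heavy chain that SLC7A11 needs, at 0.10 ± 0.07 did not pass there. Named for their wide errors, SLC1A5 at -0.26 ± 0.35, SLC38A2 at 0.39 ± 0.35 and SLC38A1 at -0.17 ± 0.52 did not pass either. The authors' deposited table called 4 of 12 aminoacyl-tRNA synthetases higher and 4 lower, with EPRS1 at -0.35 ± 0.07 and CARS1 at -0.27 ± 0.08 against WARS1 at 0.34 ± 0.09 and SARS1 at 0.24 ± 0.07.

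Secreted factors and genes of growth, autophagy and death held genes that rose and genes that fell. Their counts stand beside the 15.7% of all genes called in each direction. Among 5 secreted factors with an adjusted p, the authors' deposited table called 2 higher and 1 lower. INHBE, a hepatokine of the activin family, stood at 1.45 ± 0.15 and GDF15, a stress hormone, at 1.11 ± 0.09, while the glycoprotein hormone STC2 stood at -0.69 ± 0.07 in the authors' deposited table and ADM2 at -0.08 ± 0.26 did not pass. FGF21 had a mean normalized count of 0.376 and no adjusted p there. The authors' deposited table called 6 of 13 genes of growth, autophagy and death higher and 2 lower, with a median of 0.41. The autophagy genes SQSTM1 and MAP1LC3B stood at 1.46 ± 0.05 and 1.44 ± 0.08, the lipoprotein receptor VLDLR at 0.93 ± 0.11 and KLHL24 at 0.86 ± 0.09 in the authors' deposited table. NIBAN1 was listed at 4.48 ± 1.15 on a mean normalized count of 18.9 there, with 1 input count in toosendanin cells and 0 in control cells. The genes that fell were the paralogs of SESN2, chosen for mention after their values were seen: SESN1 at -0.62 ± 0.12 and SESN3 at -0.66 ± 0.27 (DESeq2 adjusted p = 0.0477) in the authors' deposited table.

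The ATF6 and XBP1 targets, assigned to other arms of the response to unfolded protein in the endoplasmic reticulum, gave a point of comparison. The authors' deposited table called 3 of 16 genes higher (18.8%) and 4 lower (25%), with a median of -0.04. The share of all genes was 15.7% in each direction. The chaperone HSP90B1 stood at -0.52 ± 0.06, the transcription factor XBP1 at -0.51 ± 0.07 and the disulfide isomerase PDIA6 at -0.29 ± 0.05, against the mannosidase-like EDEM1 at 0.39 ± 0.07 in the authors' deposited table. The counts of all lists stand beside the 15.7% of all genes called in each direction, and no test set one list against another. That share covers genes down to a mean normalized count of 1.80, whereas 98 of the tested member and list genes had at least 500. It was not matched on this count, and the lists, like the members, were chosen with earlier results of these data known.

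**Figure D4:**
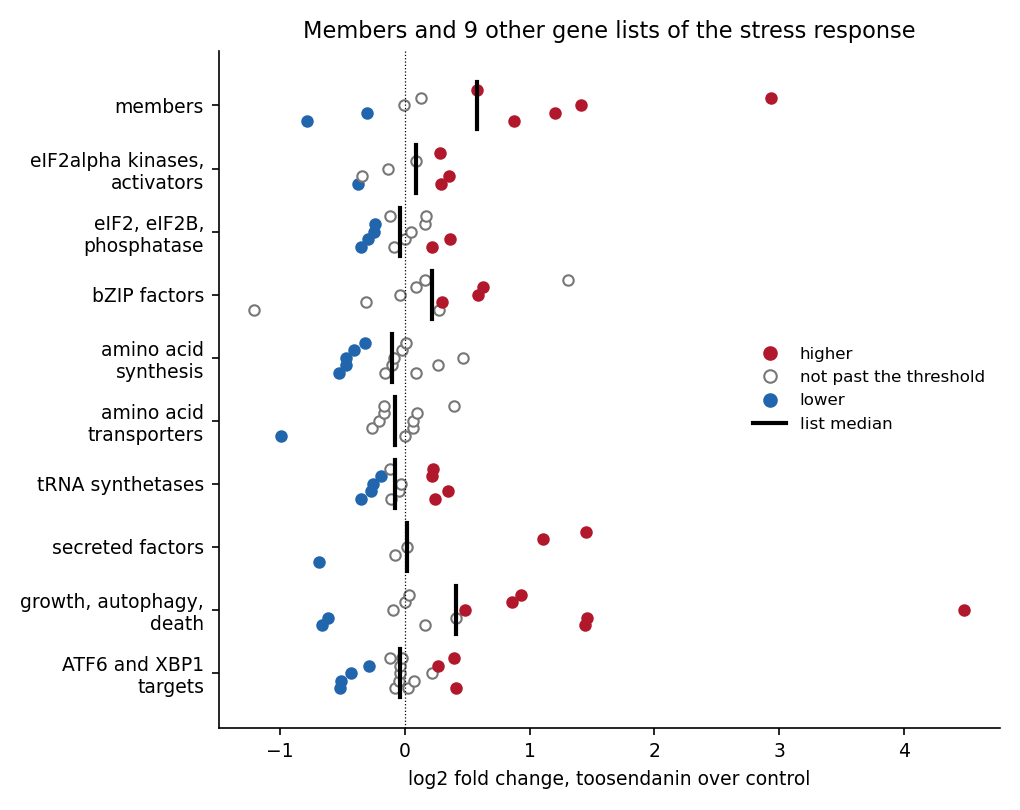
log2 fold change (toosendanin over control, authors' deposited table) of each gene with an adjusted p in the members and 9 other lists; filled points passed an adjusted p of 0.05 (red higher, blue lower), open points did not, and black bars are list medians. Medians are 0.58 for the members, 0.41 for growth, autophagy and death, and -0.11 for amino acid synthesis.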

How the data were processed

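HepG2 RNA was measured in 12 libraries, 3 IP and 3 input libraries per condition, made with a stranded kit that adds unique molecular identifiers, per the labels' protocols. The submitters' processing notes name HISAT2, StringTie and DESeq without versions. The sources used here give no genome build, annotation, counting settings or m6A caller. Separate cultures are not stated, so p-values of expression reflect spread among libraries that could be technical only.

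The expression file is the authors' own DESeq2 comparison across all genes: per the file headers it gives a mean normalized count (a signal averaged over libraries), a log2 fold change, its standard error, a Wald score and p-values before and after adjustment. The m6A file gives counts that the authors summed over libraries, a log2 fold change of IP over input, a p-value and an FDR, as deposited. The design foresaw edgeR if counts per library were given. They were not in the files used here, so the deposited tests were used and nothing was refitted across genes.

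Computed here were intervals at 95%, counting errors of summed counts, enrichment ratios, input ratios (summed over regions that carry 1 gene, as CPM or centred by the median of -0.49 over 9516 genes with at least 100 counts in both inputs) and motif matches, with Python 3.11.15, numpy 2.4.6, pandas 2.3.3, scipy 1.17.1 and matplotlib 3.10.9. The sign of the deposited changes was checked on the inputs, which may be the same libraries. Across 9469 genes, which are not independent replicates, the deposited log2 fold change and the input ratio had a Pearson r of 0.87. The members and lists were chosen with earlier results of these data known. Named genes are all members, and per list the 4 with the smallest adjusted p and the called gene with the largest change. FGF21 is named as the list gene without an adjusted p. NFE2L2, CBS and SLC38A1 are named for their standard errors, after these were seen. Other exceptions are marked. Alternatives were other thresholds, adjustments, filters and scalings.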

Additional observations from a re-analysis of the deposited data

How the results depend on the processing

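The members' calls of 5 higher and 2 lower held at an adjusted p under 0.01, with Benjamini-Hochberg over all genes with a p-value, and among the upper 50% of mean normalized counts. With at least 2-fold changes 3 were higher and 0 lower. The same limit left 0 higher and 0 lower for kinases, eIF2 genes, bZIP factors, amino acid synthesis, transporters, synthetases and ATF6 and XBP1 targets. It left 0 secreted factors lower, and 3 growth and autophagy genes higher with 0 lower. The 3 were SQSTM1, MAP1LC3B and NIBAN1, and NIBAN1 had a mean normalized count of only 18.9. Kinases had 2 lower among the upper 50% of means. At an adjusted p under 0.01, 2 kinases were higher (EIF2AK2 was lost), 1 eIF2 gene was higher, and 1 growth gene was lower, as also over all p-values and among the upper 50% of means. ATF5 reversed with summed inputs, to -0.31, a comparison added after its values were seen, and 2 bZIP factors were higher without it. Of the m6A regions, 0 were higher in each setting tried. Scaling to column totals left 1 lower, ATF4 region 2, which passed in all 6 alternatives and was depleted in both conditions. NUPR1 region 1 passed with single-gene regions alone, but not at an FDR of 0.01, centred, scaled to totals or with the statistic widened to the spread of all regions (FDR 0.625), and with at least 100 counts in each column it was not tested.

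No paired analysis was possible because the files used here hold no values per library, and leaving out single replicates was not run for the same reason. The spread of m6A between libraries is therefore unknown. Counting errors ran up to 0.60 on the log2 scale for SESN2 region 1, against 0.02 for ATF4 region 3.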

Other observations

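A few of the genes examined carried errors far above the median of well-counted genes. In the authors' deposited table the median standard error was 0.10 among 7783 tested genes with a mean normalized count of at least 500, and 107 of these (1.37%) exceeded 0.5. Among the members and the other lists, 5 of 98 genes at that level exceeded it, namely the bZIP factors CEBPB (0.70), CREB3L3 (0.78) and NFE2L2 (0.61), the cystathionine enzyme CBS (0.65) and the amino acid transporter SLC38A1 (0.52) in the authors' deposited table. CREB3L3, a liver factor named here after its values were seen, had a log2 fold change of -1.21 in the authors' deposited table (DESeq2 adjusted p = 0.254), but its summed inputs of 21897 in toosendanin cells and 15217 in control cells gave a centred log2 ratio of 1.01. For CEBPB the summed inputs of 2606 in toosendanin cells and 3769 in control cells gave -0.05, against 1.31 in the authors' deposited table. Which libraries or which counting step lie behind these gaps was not tested.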
